A study of Mus musculus with 3 samples.

Results

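The receptor tyrosine kinase genes Fgfr1, Fgfr2, Fgfr3, Met, Axl and Flt1, and Hgf, which encodes the ligand of Met, were read for copy number in 3 neurosphere lines, which are floating cultures of tumour cells. The genes were chosen by name, with earlier results of these data known: 7 of the 21129 gene names on the autosomes and X, with 55 of 170293 probes. Each gene was compared with its flank, all other probes within 500 kb on either side. The lines came from mouse gliomas resistant to an inhibitor of CSF-1R, a receptor that macrophages and microglia depend on, and were kept in a medium for neural stem cells to passages 2 to 3. Line DNA, prepared with a Qiagen kit, carried Cy5, and liver DNA of the same animal number carried Cy3. The 3 lines form 1 group (replicates 1, 2 and 3). Lines 2 and 3 carry one animal number and one liver label and line 1 another, so 2 animals stand behind 3 lines. Genotype, strain, age and the tumour model are not given in the sources used here, and the labels do not say how the tumours were initiated. A line is a culture of selected cells, and tumour cells that did not grow as spheres are not in it. All 3 arrays lay on 1 slide with the dyes one way round, so an effect of dye or slide is shared by all of them and cannot be told apart from an effect of the lines.

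Receptor tyrosine kinases sit in the cell membrane, pair up when a ligand binds and pass the signal to the RAS and PI3 kinase pathways inside the cell. In human glioma, extra copies of MET and fusions of FGFR genes to a neighbouring TACC gene are known ways of switching such a receptor on. AXL responds to GAS6 on dying cells and other membranes, and FLT1 binds VEGF and placental growth factor. Extra copies would show here as a raised ratio of line to liver over the gene, and a fusion by tandem duplication as a step inside it.

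Values are log2 of line over liver signal at each probe, centred on the autosomal median of each array, so a positive value is a higher signal in the line. If every cell held 3 copies in place of 2 the value would be 0.585, and with 1 copy it would be -1. These are values of an ideal ratio, and how near the arrays come to them was not tested. Probe noise, taken as the robust SD between neighbours, was 0.384, 0.232 and 0.238 in lines 1, 2 and 3, so a single probe of line 1 is the least reliable. Liver signal was well above background for 96.4% of probes in line 1 and for 98.6% and 99.1% in lines 2 and 3. With 3 arrays the precision of a mean over lines is low, and a p-value here covers the spread of these 3 lines alone.

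No gene reached the value of a change by 1 copy in every cell. Over the 3 lines, 6 of the 7 genes had means from -0.106 (Fgfr2) to 0.038 (Fgfr1), and Fgfr3, with 2 probes, had 0.341. The median of the 7 gene means was -0.040, against 0.011 over the 9455 genes with at least 3 probes, for which the 5th and 95th percentiles were -0.194 and 0.234. Of the 6 genes with at least 3 probes, 0 differed from 0 and 0 differed from their flanks by limma with Benjamini-Hochberg adjustment over all genes. At an unadjusted limma p under 0.05 the counts were 0 for the gene means and 2 for the differences, Fgfr2 and Flt1. The share of all genes at this unadjusted cut was not taken, so these 2 have no background beside them. Over all genes tested, 24.2% of gene means (2285) and 24% of differences from the flank (2265) passed at the adjusted threshold, so the background is high. It depends on how the lines are counted: with lines 2 and 3 averaged as 1 animal, 7.29% of gene means (689) and 17.8% of differences (1681) passed, and with each line left out in turn 11.2% to 34% of gene means did. The authors' deposited value table, used in place of the scanner ratios, moved the split of those gene means from 58.7% above 0 to 43.8%.

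**Figure D1:**
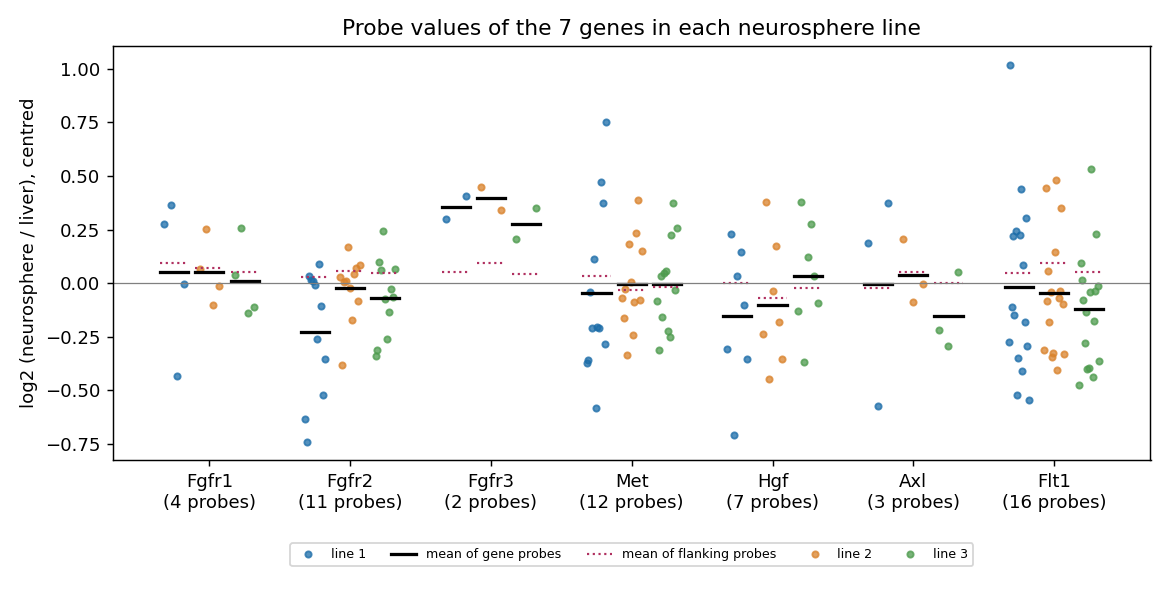
Each point is 1 probe of the gene named on the horizontal axis, and the vertical axis is log2 of neurosphere over liver signal, centred on the autosomal median. Black bars are means of the gene's probes and dotted red bars are means of the probes within 500 kb. The black Fgfr3 bars lie between 0.276 and 0.395, while the black bars of the other genes lie between -0.226 and 0.052 with single probes scattered on both sides of 0.

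Fgfr1 encodes the FGF receptor that is prominent on neural stem cells. Its 4 probes span 36.2 kb of chromosome 8 (mm9, 26637492 to 26673714). Its mean was 0.050, 0.052 and 0.011 in lines 1, 2 and 3, and the mean of its 81 flanking probes was 0.093, 0.072 and 0.051. All of these values were slightly above 0, and the gene lay just under its flank in each line; in the authors' table the gene mean was -0.032. The difference of -0.034 ± 0.012 (SD, n = 3) had a limma adjusted p of 0.491, with a 95% interval from -0.117 to 0.048. With the flank widened to 1 Mb the difference was 0.0084, and with it narrowed to 250 kb it was -0.097 (limma adjusted p = 0.107).

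The flank of Fgfr1 itself passed the test (0.072, limma adjusted p = 0.00669). Means of flanks passed often: 42.5% of all flanks did in either direction and 31.9% above 0. The call ended without line 2 (adjusted p = 0.0653) and under normexp, loess, the authors' table and the 1 Mb window. With the 250 kb window the flank mean was 0.135 (limma adjusted p = 0.000953), where 39.1% of all flanks passed. Of 9 neighbours with at least 3 probes, 3 passed above 0: AK190590 (0.158), Plekha2 (0.178) and Whsc1l1 (0.154), a chromatin regulator also known as Nsd3. Over all genes 14.2% passed above 0. These 3 calls ended without line 2 and without line 3. Whsc1l1 stood at 0.178, 0.177 and 0.106 in lines 1, 2 and 3, and at -0.010 on average under normexp background correction. Hgsnat, a lysosomal enzyme gene, passed below 0 (-0.186), as did 9.97% of all genes, but not without line 3.

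Within Fgfr1 the probes differed by position. The first 2 probes averaged 0.320, 0.160 and 0.146 in lines 1, 2 and 3, and the last 2 averaged -0.219, -0.056 and -0.124. By position the 4 probe means over lines were 0.126, 0.292, -0.225 and -0.042. The first 2 lay above the last 2 in each line, but whether this is a step was not tested. The nearest flanking probe before the gene read -0.519, 0.058 and -0.036 in lines 1, 2 and 3. The nearest one after it read 0.180, -0.082 and -0.049. Probe values repeated between lines over the whole array too (r from 0.640 to 0.814). The first 2 probes were also the dimmer ones: their liver signal relative to the array median was -0.554 and -0.947 (log2), and that of the last 2 was 0.638 and 0.387. The part of brightness in this contrast was not tested.

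Fgfr2, whose 11 probes cover 99.8 kb of chromosome 7 (137307287 to 137407123), encodes a receptor for FGFs made by neighbouring tissue layers. It averaged -0.226, -0.023 and -0.068 in lines 1, 2 and 3, while the mean of the 70 flanking probes was 0.027, 0.055 and 0.045. The gene was below its flank in all lines, and line 1 stood apart from the other two; under normexp the gene mean over lines was 0.046. The difference was -0.148 ± 0.093 (SD, n = 3; 95% interval -0.255 to -0.041), with a limma adjusted p of 0.0547. It passed without line 1 (-0.095, adjusted p = 0.0454), whose value lay farthest out, where 40.8% of all differences passed. That fit holds only lines 2 and 3, which carry the same animal number. It also passed among genes with at least 10 probes (adjusted p = 0.0212), where 28% of differences passed. Without line 2 and without line 3 it missed the threshold. The value of a 1-copy loss of the gene alone in every cell lies far outside the interval of the difference. A loss shared with the flank would not show in it. The 95% interval of the gene mean itself was -0.218 to 0.0073. Of all genes, 23.1% were at least as far from their flanks.

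The low mean of Fgfr2 rested on some probes and not on others. Of its 11 probes, 3 were above 0 in all lines, 4 were below 0 in all lines and 4 had mixed signs. The first 5 probes averaged -0.264, -0.034 and -0.051 in lines 1, 2 and 3, and the last 5 averaged -0.231, -0.011 and -0.084, so no step divided the gene. The lowest and the highest probe are shown, since they differ in sign within 1 gene. The strand is not given in the files and no stretch is singled out.
Fgfr2 lowest probe (chr7:137321617-137321676): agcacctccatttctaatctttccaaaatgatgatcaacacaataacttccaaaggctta
Fgfr2 highest probe (chr7:137353051-137353110): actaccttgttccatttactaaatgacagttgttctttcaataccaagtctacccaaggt
The lowest probe read -0.740, -0.383 and -0.313 in lines 1, 2 and 3, and the highest read 0.010, 0.169 and 0.241. Their shares of G and C were 35% and 36.7%. Their liver signals relative to the array median were far apart, 1.37 for the lowest and -1.24 for the highest (log2). Of the 11 Fgfr2 probes, 8 belonged to the brightest of 3 equal classes of probes by liver signal. Over all probes of the same liver signal, in 100 classes, the ratios averaged -0.112 for the gene's probes and -0.011 for its flanking ones. This difference, -0.102, stands beside the measured -0.148. With loess the difference was -0.061, and with normexp it was -0.0091. The part of brightness in it was not tested beyond these values.

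Fgfr3 encodes the FGF receptor typical of astrocytes and their precursors. Only 2 probes carry its name, within 6.26 kb of chromosome 5 (34069504 to 34075761), so it was below the 3 probes asked of a tested gene. Both are shown, because the whole reading of the gene rests on them.
Fgfr3 probe 1 (chr5:34069504-34069563): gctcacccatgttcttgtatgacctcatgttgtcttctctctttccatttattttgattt
Fgfr3 probe 2 (chr5:34075702-34075761): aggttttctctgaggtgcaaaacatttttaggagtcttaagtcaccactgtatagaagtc
Probe 1 read 0.300, 0.448 and 0.204 in lines 1, 2 and 3, and probe 2 read 0.406, 0.341 and 0.349. All 6 readings were above 0, and the probes overlapped in value. Together they gave 0.353, 0.395 and 0.276, against 0.052, 0.096 and 0.043 for its 93 flanking probes. The difference was 0.278 ± 0.039 (SD, n = 3), above 0 in 3 of 3 lines. It was 0.172 with normexp, 0.215 with loess and 0.190 in the authors' deposited value table.

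When every gene with at least 1 probe was tested, an alternative added after seeing the data, Fgfr3 passed. Its limma adjusted p was 0.0172 for the gene mean and 0.0230 for the difference (95% interval 0.165 to 0.390), where 22.6% of gene means and 22.1% of differences passed. The call of the gene mean ended without line 2 (adjusted p = 0.104), without line 3 (0.0745), with lines 2 and 3 averaged (0.0940) and under normexp (0.0533). That of the difference ended without line 2 (adjusted p = 0.122), without line 3 (0.0752), with lines 2 and 3 averaged (0.0862), and under normexp (0.0704) and the authors' table (0.0517). Under loess it was 0.0419. Among the 3572 genes with 2 probes, 330 (9.24%) lay at least as far from 0 as Fgfr3, and 578 (16.2%) lay at least as far from their flank. The interval of the difference lies below the 0.585 of a gain of the gene alone in every cell, and that of the gene mean was 0.216 to 0.467. Both cover the spread of the lines and not the error of the 2 probes. A gain in a part of the cells cannot be told apart from a probe effect with 2 probes. Probe 2 was dim, and all probes of the same liver signal averaged 0.229 beside its 0.365. Probe 1 was near the array median in brightness, and all probes of the same liver signal averaged 0.011 beside its 0.317.

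The probes nearest to Fgfr3 read close to its level on one side and not on the other, but those farther out did not keep to this. The nearest probe named AK172441 read 0.552, 0.401 and 0.241 in lines 1, 2 and 3, and the next averaged 0.253. The nearest on the other side, in Letm1, read 0.199, 0.071 and -0.166, and the next read -0.544, -0.446 and -0.622. Readings on the Letm1 side thus crossed 0 within 2 probes in lines 1 and 2 and at once in line 3. The Letm1 probe after these was above 0 again, at 0.334, 0.190 and 0.178. The AK172441 probe at the same place in the order read -0.034, 0.105 and 0.115, so neither side kept a level. AK172441 with 5 probes passed above 0 (0.167, limma adjusted p = 0.0278), and Letm1, a mitochondrial ion exchanger gene, passed below 0 (-0.170, adjusted p = 0.0282). Each lost its call without line 2 and without line 3. Tacc3, the fusion partner of FGFR3 in human glioma, had 1 probe in the window, which read 0.236, 0.293 and -0.018. The partners Tacc1 and Tacc2 lie in the windows of Fgfr1 and Fgfr2, and their means over lines were -0.046 ± 0.032 (5 probes) and 0.014 ± 0.016 (23 probes; SD, n = 3). These partners were added to the genes named after their values were seen.

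A single probe in the window of Fgfr3 stood apart from all others in the 7 windows. It is named AK082416, lies 262 kb beyond the gene and was picked after its values were seen.
AK082416 probe (chr5:34338109-34338168): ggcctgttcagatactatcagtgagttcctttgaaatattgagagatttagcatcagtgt
Its log2 ratio was -1.61, 0.836 and 2.21 in lines 1, 2 and 3. Only 2 of the 170293 probes, itself included, had a range over the lines this wide. Taken by channel, liver signal relative to the array median was 1.52, -0.999 and -0.961 (log2), and line signal was -0.099, -0.171 and 1.23. The liver of line 1 was thus bright at this probe and both readings of the other liver were dim, while of the lines only line 3 was bright. A stretch of 5 neighbouring probes that holds it averaged 0.616 in line 3, a value that 1.44% of tested genes reached in their windows. Without it the Fgfr3 flank averaged 0.071, 0.088 and 0.020, and the gene minus flank was 0.282 ± 0.025 (SD, n = 3). Apart from this probe, 2 of the 609 probes in the 7 windows reached an absolute value of 1 in a line, both in line 1. Over the whole array, 1.37% of probes did so in at least 1 line.

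**Figure D2:**
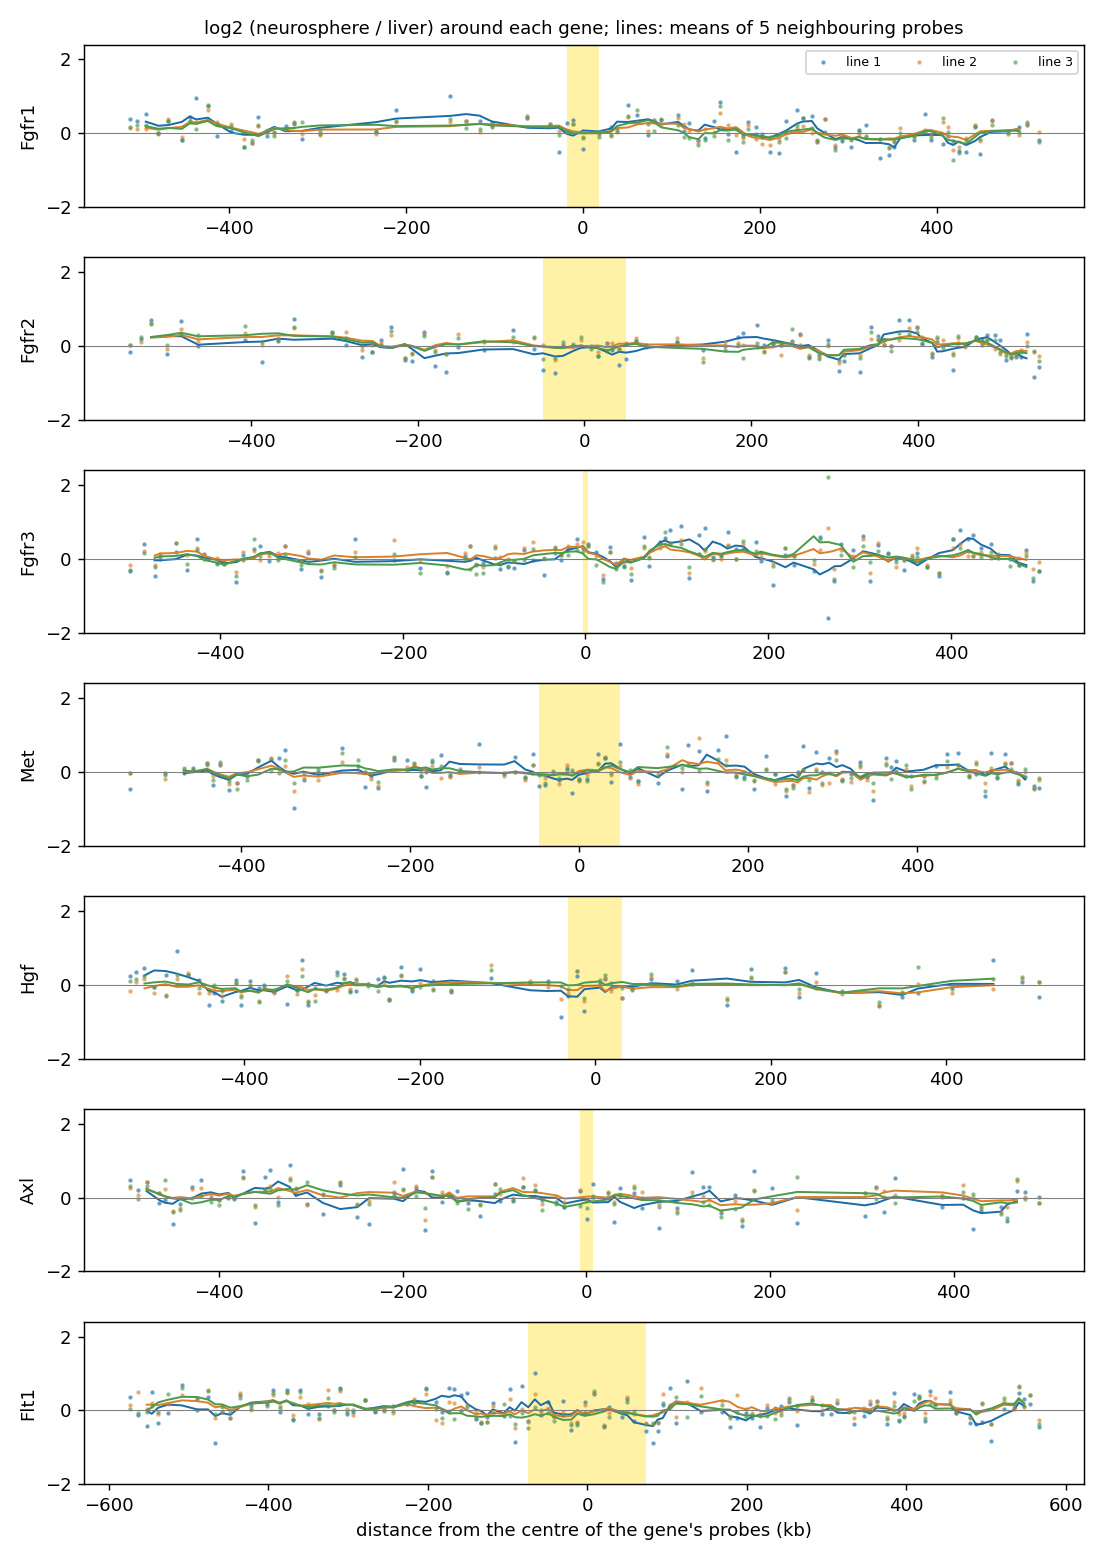
Log2 of neurosphere over liver signal (vertical axes) for the probes around each gene, by distance from the centre of the gene's probes in kb. Points are single probes of the 3 lines, coloured lines are means of 5 neighbouring probes and the shaded band marks the gene. The coloured lines stay within 0.616 of 0 in every window, and the isolated points of the AK082416 probe stand out beyond Fgfr3 at -1.61 and 2.21.

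Hgf encodes hepatocyte growth factor, which stromal cells and some glioma cells secrete. It has 7 probes over 62.0 kb of chromosome 5 (16062948 to 16124926). Lines 1, 2 and 3 gave means of -0.153, -0.101 and 0.032, and that of the 57 flanking probes was 0.002, -0.068 and -0.024. The lines lay on both sides of 0 and of their flanks. The difference was -0.044 ± 0.105 (SD, n = 3; 95% interval -0.158 to 0.069), with a limma adjusted p of 0.518. Its sign turned without line 1 (0.011) and under loess (0.018), normexp (0.068) and the authors' table (0.041). Averaged over the lines, the farthest 5-probe mean in the Hgf window was -0.224, and 96.8% of tested genes had one at least as far from 0. In line 1 alone the farthest was 0.385, and 80.9% of tested genes had one at least as far. This window held 64 probes, the fewest of the 7 windows. The single tested neighbour, Cacna2d1, which encodes a calcium channel subunit, averaged -0.028 over 43 probes.

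Inside Hgf the probes differed more from each other than the lines did. The lowest and highest probes are next to each other and are shown for that contrast.
Hgf lowest probe (chr5:16081737-16081796): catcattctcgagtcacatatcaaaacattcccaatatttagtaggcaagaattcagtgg
Hgf highest probe (chr5:16073530-16073589): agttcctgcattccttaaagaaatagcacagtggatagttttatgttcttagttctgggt
The lowest read -0.710, -0.447 and -0.367 in lines 1, 2 and 3, and the highest read 0.227, 0.378 and 0.378, with the same 36.7% G and C. The SD of the 7 probe means was 0.287, while the typical SD of a probe over the lines was 0.109. Over all probes of the array the SD of probe means was 0.273, and the median SD of a probe over the lines was 0.128. The pattern of high and low probes repeated from line to line.

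Met encodes the receptor of hepatocyte growth factor. It was read by 12 probes over 95.9 kb of chromosome 6 (17420090 to 17515946). It averaged -0.046, -0.0032 and -0.0059 in lines 1, 2 and 3, and the 85 flanking probes averaged 0.034, -0.033 and -0.018. Lines 2 and 3 lay just above their flanks and line 1 just below. The difference was -0.013 ± 0.059 (SD, n = 3), with a limma adjusted p of 0.832. The 95% interval, -0.106 to 0.080, leaves out the value of a 1-copy gain or loss of the gene alone in every cell. A change shared with the flank would not show in it. The 95% interval of the gene mean itself was -0.109 to 0.072. The sign of the difference turned under 6 alternatives, loess (0.013) among them. A gain in a small share of the cells would lie within both intervals.

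Within Met, 4 probes were above 0 in all lines, 6 were below 0 in all lines and 2 had mixed signs. The first 6 probes averaged -0.242, -0.068 and -0.069, and the last 6 averaged 0.150, 0.061 and 0.058. Each line thus read higher on average over the last 6 probes, but those at positions 7, 8 and 11 were below 0 in all lines. The highest probe (chr6:17515887-17515946) was the last one, at 0.753, 0.152 and 0.257, and was the dimmest of the gene in liver (-1.11 relative to the array median, log2). The lowest (chr6:17427352-17427411) was the brightest of the gene, at 1.61, and read -0.359, -0.165 and -0.313. Of 9 tested neighbours, Capza2, an actin capping protein gene, passed above 0 (0.281, 0.373 and 0.109 in lines 1, 2 and 3) and Asz1, a germ cell gene, passed below 0 (-0.186, -0.172 and -0.111). Without line 2 neither passed, and without line 3 Asz1 did not; the highest limma adjusted p over the alternatives was 0.0911 for Capza2 and 0.159 for Asz1.

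Axl encodes a receptor of the TAM family, named after Tyro3, Axl and Mertk, which also serves the clearance of dying cells. It has only 3 probes, within 14.1 kb of chromosome 7 (26553641 to 26567721). The 3 probes averaged -0.0043, 0.038 and -0.155 in lines 1, 2 and 3, against -0.025, 0.050 and 0.0028 for 72 flanking probes. Line 3 was lower than the other two, but its probes read -0.221, -0.296 and 0.052 and overlapped those of lines 1 and 2. The difference was -0.050 ± 0.095 (SD, n = 3; 95% interval -0.158 to 0.059), with a limma adjusted p of 0.446. Without line 3 it was 0.0044 and under loess 0.024. The middle probe, with a liver signal 2.02 above the array median (log2), was the only one below 0 in all lines. Of 7 tested neighbours, Hnrnpul1, an RNA-binding protein gene, passed below 0 (-0.162), a call lost without line 2 and without line 3, and 0 passed above 0.

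Flt1 encodes VEGF receptor 1, a receptor of endothelial cells and macrophages, and has the most probes, 16 over 147.6 kb of chromosome 5 (148382104 to 148529725). The gene mean was -0.019, -0.047 and -0.123 in lines 1, 2 and 3. The mean of its 96 flanking probes was 0.045, 0.094 and 0.053. The gene lay below its flank in all lines, with differences of -0.064, -0.141 and -0.176. The difference was -0.127 ± 0.057 (SD, n = 3; 95% interval -0.220 to -0.035), with a limma adjusted p of 0.0554. This misses the threshold of 0.05, and 29.6% of all genes lay at least as far from their flanks. Over all probes of the same liver signal, in 100 classes, the difference of gene and flank was -0.047 for Flt1. The part of brightness in the measured -0.127 was not tested.

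For Flt1, the side of the threshold depended on the choice of probes and lines. The difference was -0.164 (limma adjusted p = 0.0166) with probes well above background in all arrays, -0.133 (0.0490) with a correction for base composition and -0.159 (0.00190) without line 1. Over all genes, 26.6%, 23.8% and 40.8% of differences passed in these settings. The last holds only lines 2 and 3, which carry the same animal number. Among genes with at least 10 probes, where 28% of differences passed, the adjusted p was 0.0194. With lines 2 and 3 averaged it was 0.234, under loess 0.147 (-0.092) and under normexp 0.108 (-0.101). The highest probe of the gene, which the background filter left out, is shown with the lowest.
Flt1 highest probe (chr5:148390333-148390392): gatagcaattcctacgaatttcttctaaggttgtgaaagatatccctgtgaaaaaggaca
Flt1 lowest probe (chr5:148436018-148436077): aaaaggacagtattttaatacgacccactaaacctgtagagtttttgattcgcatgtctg
The highest probe read 1.02, 0.442 and 0.094 in lines 1, 2 and 3, and in line 1 it was not well above background. It was the dimmest of all 55 probes, with a liver signal of -2.13 relative to the array median (log2). The lowest read -0.520, -0.344 and -0.401. A second high probe (chr5:148464464-148464523, noticed after its values were seen) read 0.437, 0.483 and 0.530, while the probes on either side averaged 0.110 and -0.417 over the lines.

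The first and the last probes of Flt1 gave no step that held in all lines. The first 8 probes averaged 0.010, -0.099 and -0.207 in lines 1, 2 and 3, and the last 8 averaged -0.048, 0.006 and -0.038. The flank of Flt1 passed above 0 (0.064, limma adjusted p = 0.0154), and lost that call without line 2 (0.172) and without line 3 (0.0608). It also lost it with lines 2 and 3 averaged (adjusted p = 0.0517), and under normexp, loess, medians and both other window sizes, and averaged -0.010 in the authors' table. Of 7 tested neighbours, 2 passed above 0. Flt3, the receptor tyrosine kinase gene next to Flt1, was 0.126, 0.122 and 0.132 in lines 1, 2 and 3 (limma adjusted p = 0.0477), and it kept its call under 5 of 14 alternatives. The RIKEN transcript 2210019I11Rik was 0.306, 0.307 and 0.288 (adjusted p = 0.00440), and 0.097 under normexp (adjusted p = 0.245) and 0.099 in the authors' table (adjusted p = 0.0786). Over the 7 windows, 7 of 47 tested neighbours passed above 0 and 4 below, near the background shares of 14.2% and 9.97%, which also treat the 3 lines as separate.

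**Figure D3:**
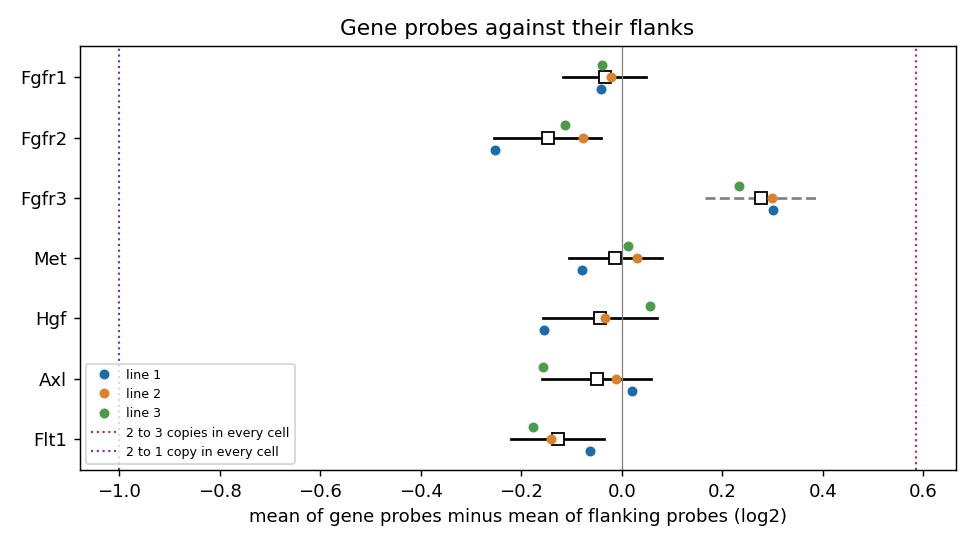
Mean of each gene's probes minus the mean of its flanking probes (horizontal axis, log2). Coloured points are the 3 lines, squares their mean and bars the limma 95% interval; the dashed bar of Fgfr3 comes from the fit with at least 1 probe. All intervals lie between the dotted marks of a 1-copy loss at -1 and a 1-copy gain at 0.585, and Fgfr3 is the only gene whose interval lies wholly above 0. A change shared by a gene and its flank would not show here.

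Across the 55 probes, the reading followed the brightness of the probe. The brightness of a probe depends on its sequence and is no measure of copy number. In 3 equal classes of all probes by liver signal, the dimmest class held 14 of the 55 probes, with a mean ratio of 0.208 ± 0.182 (SD over probes), and 12 of them were above 0. The middle class held 18, with 0.002 ± 0.227. The brightest held 23, with -0.223 ± 0.164, and 2 of them were above 0. Over all probes of the array the same classes averaged 0.184, 0.012 and -0.186, so the trend is not particular to these genes. It was widest in line 1, where the 55 probes went from 0.316 in the dimmest class to -0.310 in the brightest.

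The liver signal enters the ratio, so the relation was also taken with the liver of the other animal number. Across the 55 probes, the ratio in line 1 correlated with liver signal on the array of line 3 at r = -0.660. The ratios in lines 2 and 3 correlated with liver signal on the array of line 1 at r = -0.629 and -0.596. Over all 170293 probes the values were -0.466, -0.563 and -0.553. The probes share the slide, the dyes and their sequences between arrays. The flank and gene probes of Fgfr2 differed most in this respect among the genes with at least 3 probes: liver signal was 0.683 above the array median for the gene and 0.050 for the flank (log2).

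The probes kept their order from line to line. Across the 55 probes, values of lines 1 and 2 correlated at r = 0.777, those of lines 1 and 3 at 0.696 and those of lines 2 and 3 at 0.827. Over all probes the values were 0.694, 0.640 and 0.814. Of the 55 probes, 16 (29.1%) were above 0 in all lines and 24 (43.6%) were below 0 in all lines, against 32.9% and 34.2% of all probes. The SD over the 55 probe means was 0.257, and the median SD of a probe over the lines was 0.107. Base composition was narrow, from 30% to 41.4% G and C with a mean of 36.9% (36.7% for all probes). Within it, ratios correlated with the count of G at r = 0.305 and with the count of C at r = -0.278 (0.104 and -0.097 over all probes). None of the 55 holds AGCT, the cut site of the enzyme AluI, and neither does any of the 170293 probes on either strand.

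The other genes of these pathways came from lists of FGF, HGF and MET, TAM and VEGF genes, 60 in all. Probes bear the names of 49 of these, at least 3 probes each for 29. By limma, 4 of the 29 gene means passed above 0 and 2 below, beside 14.2% and 9.97% of all genes. For the difference from the flank, 3 passed above and 2 below, beside 10.1% and 13.9%. The median of the 29 gene means was 0.033, beside 0.011 over all genes. None of the passing genes reached the value of a 1-copy change.

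In the FGF list, 3 of 13 tested genes passed above 0 and 1 below. Fgf9, the gene of a ligand made by neurons and glia, was 0.237, 0.301 and 0.206 in lines 1, 2 and 3 (limma adjusted p = 0.00744; 3 probes), and the gene mean kept its call under 14 of 14 alternatives. Kl, the gene of the coreceptor Klotho, was 0.207, 0.174 and 0.226 (adjusted p = 0.0117), and without line 2 or line 3 that call was lost. Spred1, the gene of a brake on RAS signalling, was 0.225, 0.153 and 0.272 (adjusted p = 0.0117), and its call was lost without line 3. Fgf10, a ligand gene of Fgfr2, was -0.334, -0.195 and -0.053 (adjusted p = 0.0383), with the call lost without line 2. Fgf9, Kl and Spred1 also passed above their flanks, Kl at 0.134 and at -0.025 under normexp; without line 2 none of these differences passed. Fgf18, another ligand gene, passed below its flank (-0.210, adjusted p = 0.0413) but not against 0. The remaining receptor gene Fgfr4 had 2 probes and averaged 0.184 ± 0.075 (SD, n = 3), below Fgfr3 in every line.

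In the HGF and MET list, 1 of 7 tested genes passed above 0 and 1 below. Grb2, the gene of the adaptor that links receptors to RAS, was 0.259, 0.183 and 0.051 in lines 1, 2 and 3 (limma adjusted p = 0.0435), and did not pass without line 2. Its flank was 0.107, 0.191 and 0.140, so the gene did not stand out from its surroundings (difference 0.019, adjusted p = 0.813). Plxnb1, the gene of a semaphorin receptor that can pair with Met, was -0.455, -0.078 and -0.232 (adjusted p = 0.0285), and it was -0.262 from its flank (adjusted p = 0.0349). Both calls of Plxnb1 were lost under normexp and loess. In the TAM list 0 of 2 tested genes passed either test, with Mertk at 0.119 ± 0.101 and Pros1, a ligand gene, at 0.144 ± 0.163. The ligand gene Gas6, with 2 probes, averaged 0.409 ± 0.151. In the VEGF list 0 of 7 passed. Farthest from 0 was Flt4, the gene of the lymphatic VEGF receptor, at -0.646, -0.045 and -0.206 in lines 1, 2 and 3 (limma adjusted p = 0.0539; from its flank -0.320, adjusted p = 0.0660). Kdr, the gene of the main VEGF receptor of vessels, averaged -0.011 ± 0.193 (SD, n = 3), the nearest to 0.

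The genes nearest to a member in their 3 line values, by Euclidean distance over genes with at least 3 probes, lay very close. For Met they were ENSMUST00000037779 and Abcd2, at 0.003 and 0.010. For Fgfr1 they were Atxn1 and Cacng3, and 13.8% of tested genes lay within 0.1 of it, as 14.4% did for Met. For Flt1 they were Uvrag and Fam71d, for Axl Hk2 and Tsc2, and for Hgf ENSMUST00000151851 and Tmem26. Fgfr3 had the fewest near genes: Cuedc1 and Runx3 at 0.042 and 0.051, and 27 genes (0.286%) within 0.1. Its mean of 2 probes was set here against genes with at least 3 probes. Of those genes 1.66% lay at least as far from 0 as Fgfr3, against 9.24% of genes with 2 probes. With 3 values per gene, such nearness is a description of level only.

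Set side by side, line 1 and the lines of the other animal number differed in no shared direction. Line 1 was the lowest of the lines for Fgfr2, Met and Hgf and the highest for Flt1, and line 3 was the lowest for Fgfr1, Fgfr3, Axl and Flt1. Single probes of line 1 were the most spread, with an SD of 0.373 over the 55 probes against 0.234 and 0.233 in lines 2 and 3. No test was made of this contrast, which is 1 animal against 1.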

How the data were processed

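Genomic DNA of 3 neurosphere lines (Cy5) was hybridised with liver DNA (Cy3) to Agilent arrays. Per the file headers, the authors' intensity values came from Feature Extraction 10.7.3.1 with background subtraction, detrending and linear dye normalisation. A log10 ratio in the deposited scanner files is that of the same signals. The authors' value table, also in log10, has medians of 0.000435, -0.00146 and -0.00271 for lines 1, 2 and 3, and its columns correlated with the scanner ratios at 0.867, 0.844 and 0.884. Its correction and centring are not given in the sources used here. Coordinates are mm9, per the file headers. Exons and introns of mm9 genes were not used here.

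Of 180880 spots, 6575 control spots and those marked as outliers were left out, and spots of a probe were averaged (170293 probes). Log2 of Cy5 over Cy3 processed signal was centred on the median of 161449 autosomal probes. Gene means, flank means and their differences were tested against 0 with limma 3.58.1 (lmFit, eBayes, 2-sided, Benjamini-Hochberg over all genes with at least 3 probes and 5 flanking probes, threshold 0.05) in R 4.3.3, and the fit was tested on simulated data. Python 3.11.15, numpy 2.4.6, pandas 2.3.3 and matplotlib 3.10.9 were used for the rest. Alternatives were each line left out, lines 2 and 3 averaged, normexp (offset 50), loess, the value table, medians, probes well above background, outliers kept, windows of 250 kb and 1 Mb, other probe minimums, other centring and, added after seeing the data, a base composition correction, probe minimums for single genes and all alternatives for list genes and neighbours.

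Named were the 7 genes, list genes past either test, the 2 genes nearest in value to each member, neighbours past the test of gene means, and the highest and lowest probe of a member. The genes nearest to Fgfr2 are not reported here. Members and lists were chosen with earlier results of these data known. Nothing in the labels says how lines 2 and 3 were separated, so their spread may be technical.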

Additional observations from a re-analysis of the deposited data

How the results depend on the processing

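Of 347 alternatives to the values of the 7 genes and both counts, 272 kept the direction and the side of the threshold or moved by less than the spread, 35 turned the sign, 13 lost and 8 gained a call, and 19 moved further. Of the 35 that turned the sign, none concerned a value past the threshold except the Flt1 flank in the authors' table. Fgfr3 stayed above 0 and above its flank in every alternative run. The causes were not tested.

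With normexp, gene means were 0.046 (Fgfr2), 0.204 (Fgfr3), 0.034 (Met) and 0.039 (Hgf). Flank means were 0.043 (Fgfr1), 0.055 (Fgfr2), 0.033 (Fgfr3), 0.018 (Met), -0.029 (Axl) and 0.028 (Flt1). Differences were 0.172 (Fgfr3), 0.016 (Met) and 0.068 (Hgf). Kl was -0.025 from its flank and the Whsc1l1 mean was -0.010.

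With loess, gene means were 0.252 (Fgfr3) and 0.011 (Met), and flank means were 0.052 (Fgfr1), -0.039 (Axl) and 0.030 (Flt1). Differences were 0.215 (Fgfr3), 0.013 (Met), 0.018 (Hgf) and 0.024 (Axl), and 1424 genes differed from their flanks, not 2265.

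In the authors' value table, gene means were -0.032 (Fgfr1), 0.196 (Fgfr3), 0.045 (Met) and 0.028 (Hgf). Flank means were 0.0088 (Fgfr1), 0.0065 (Fgfr3), -0.068 (Axl) and -0.010 (Flt1), and differences were 0.190 (Fgfr3), 0.048 (Met) and 0.041 (Hgf).

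The 1 Mb window gave flank means of 0.029 (Fgfr1), -0.032 (Axl) and 0.036 (Flt1) and differences of 0.0084 (Fgfr1) and 0.0028 (Met). The 250 kb window gave flank means of 0.023 (Met), 0.00017 (Hgf), -0.031 (Axl) and 0.038 (Flt1). Centring on the own chromosome gave flank means of 0.053 (Fgfr2) and 0.0088 (Met), and medians gave 0.035 (Flt1). Probes well above background gave differences of 0.0038 (Met) and -0.164 (Flt1), and the base composition correction -0.133 (Flt1). With at least 10 probes, the differences of Fgfr2 (-0.148) and Flt1 (-0.127) passed, and 760 and 779 of 2782 genes passed the tests of means and differences. With at least 1 probe, 4766 and 4671 passed.

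Lines 2 and 3 averaged gave flank means of 0.0042 (Met) and 0.059 (Flt1, no longer past the threshold), and 689 genes differed from 0. Leaving out each line in turn, gene means ranged from -0.080 to 0.017 (Axl). Flank means ranged from 0.062 to 0.083 (Fgfr1), -0.025 to 0.0080 (Met), -0.011 to 0.026 (Axl) and 0.049 to 0.074 (Flt1). Differences ranged from -0.183 to -0.095 (Fgfr2), -0.034 to 0.021 (Met), -0.094 to 0.011 (Hgf), -0.085 to 0.0044 (Axl) and -0.159 to -0.103 (Flt1). Counts ranged from 1056 to 3219 for means and from 973 to 3858 for differences, the lowest without line 2 and the highest without line 1 in both. No paired analysis was possible because the 3 lines make up 1 group, and each array already pairs a line with liver of its animal number. Of the 55 gene probes, signal over background limits 1, the highest of Flt1 in line 1. The background filter covered flanking probes as well: with it the Fgfr2 flank mean was 0.027, against 0.042 in the main setting.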
